A study of Macaca mulatta with 6 samples.

Results

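Endothelin-1 and adrenomedullin are small secreted peptides that act on blood vessels, and endothelial cells are known as a source of both. Endothelin-1 constricts vessels: its precursor is cut by furin-type proteases and then by endothelin-converting enzyme, and the mature peptide acts through the receptors EDNRA and EDNRB, which couple mainly to Gq and related G proteins. Adrenomedullin dilates vessels and helps to keep the endothelial barrier tight: it acts through the receptor CALCRL, which needs a RAMP protein as partner and raises cyclic AMP. Apelin and the natriuretic peptides are further vasoactive peptides with receptors of their own.

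The 10 genes described here were taken by symbol: EDN1, ECE1, EDNRA and EDNRB of the endothelin system, ADM, CALCRL, RAMP1 and RAMP2 of the adrenomedullin system, and APLN and NPPB, the precursors of apelin and of B-type natriuretic peptide. All 10 are among the 24932 genes of the table. They were chosen with earlier results of these data known, so their calls and ranks are descriptions only. Polyadenylated RNA was sequenced from RF/6A, a rhesus macaque cell line labelled as choroidal endothelial, grown to confluence on porous inserts. Cells received either 50% normal human serum, in which complement can form its membrane attack complex, or 50% heat-inactivated human serum, for 4 hours, with 3 libraries of each. The comparison asks how transcripts differ between serum with and without active complement. All cells received human serum, and anything else that heating alters in serum cannot be told apart from complement. The labels do not tell whether replicates came from separate cultures, so each p-value measures a spread among libraries that may be technical only.

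Levels are given as FPKM, in which fragment numbers are divided by transcript length and by library depth, summed over the transcripts of a gene. Every gene whose mean reached 1 FPKM was tested with limma on log2(FPKM + 1), and called at a Benjamini-Hochberg adjusted p under 0.05 over all genes tested. The depth of replicates 2 and 3 was between 14400000 and 17500000 fragments after the authors' scaling, and that of the replicate 1 libraries could be read only approximately. The replicate 1 libraries of both treatments stand apart from the others in the steps of their lowest values, so changes within replicates 2 and 3 are given beside the main results. Of 12 endothelial markers, 4 reached the level for testing and those 4 were called higher in normal serum, beside 27.8% of all genes tested. Their summed level was 98.0 to 104 FPKM in normal serum and 73.8 to 75.8 FPKM in heat-inactivated serum. ENG held most of it, at 74.2 FPKM in normal serum and 61.2 FPKM in heat-inactivated serum. Its call was lost in 4 of 17 alternatives, with limma adjusted p from 0.0516 without normal serum replicate 2 to 0.336 with quantile normalization. FLI1 averaged 12.2 and 6.58 FPKM in normal and heat-inactivated serum, PECAM1 7.95 and 3.35 FPKM, and ESAM 4.91 and 2.63 FPKM. The other 8 were below the level for testing. Among them CDH5 was at 0.0110 FPKM in normal serum and 0 in heat-inactivated serum, KDR at 0.105 and 0.370 FPKM, and VWF at 1.05 and 0.172 FPKM. Mural and fibroblast markers were abundant: their summed level was 3201 to 3341 FPKM in normal serum and 6718 to 7268 FPKM in heat-inactivated serum. COL1A1 held most of it, at 2026 FPKM in normal serum and 3870 FPKM in heat-inactivated serum. Of these markers 8 of 9 tested were called lower, beside 26.1% of all genes tested. The exception was CSPG4, also a pericyte marker, which was higher, at 40.9 FPKM in normal serum and 14.5 FPKM in heat-inactivated serum. The summed level of leukocyte markers was 13.5 to 16.0 FPKM in normal serum and 14.4 to 19.0 FPKM in heat-inactivated serum, and that of epithelial markers 4.25 to 4.73 FPKM and 7.31 to 8.24 FPKM. Some endothelial markers were thus expressed, while others that define the cell type, CDH5 and KDR among them, were near 0.

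The precursors of the opposed peptides moved in opposite directions. EDN1 was 7.21-fold higher in normal serum and ADM stood at 0.232 of its level in heat-inactivated serum. ECE1, the converting enzyme, was expressed in every library and missed the threshold. The receptors EDNRA and CALCRL averaged under 1 FPKM in both sera, and EDNRB, RAMP1 and RAMP2 were listed at 0. Of the 10 members 4 passed the filter on low values, of which 1 was called higher, 1 lower and 2 neither. Of all 11818 genes tested 54.0% were called, 27.8% higher and 26.1% lower, so a call by itself is common in these data. The share of all genes whose libraries did not overlap between treatments was not computed. A lack of overlap is therefore given below only as a description of the values.

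EDN1, on chromosome 4 of the table's annotation, encodes the endothelin-1 precursor. It had 125, 140.0 and 129 FPKM in normal serum replicates 1 to 3, against 16.9, 21.1 and 16.7 FPKM in heat-inactivated serum. Each normal serum library was more than 100 FPKM above each heat-inactivated one, and the spread within a treatment was small beside that gap. Means were 131 ± 7.84 FPKM in normal serum and 18.2 ± 2.50 FPKM in heat-inactivated serum (SD, n = 3 each). The log2 change was 2.79 (SE 0.10, limma adjusted p = 2.18e-06), with a 95% interval from 2.56 to 3.02. It ranked 40 among 11818 genes by size of rise. The single annotated transcript, of 1998 bases, corresponds to 3830 and 4171 fragments in normal serum replicates 2 and 3, against 644 and 441 in heat-inactivated serum, so counting error is minor here. Within replicates 2 and 3 the log2 change was 2.78 (limma adjusted p = 1.38e-04), and between the replicate 1 libraries alone, where no test is possible, 2.81. The authors' deposited table lists a log2 fold change of 2.85 for this transcript, with a q-value of 2.23e-04. In bulk RNA a lower level of a transcript in all cells and fewer cells that carry it cannot be told apart.

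ADM, on chromosome 14, encodes the adrenomedullin precursor. It had 16.4, 21.6 and 23.1 FPKM in normal serum, against 95.3, 77.8 and 90.4 FPKM in heat-inactivated serum. The treatments did not overlap, and the highest normal serum library was below the lowest heat-inactivated one by more than 50 FPKM. Means were 20.4 ± 3.54 FPKM in normal serum and 87.8 ± 9.00 FPKM in heat-inactivated serum (SD, n = 3 each). The log2 change was -2.07 (SE 0.13, limma adjusted p = 3.12e-05), with a 95% interval from -2.38 to -1.75, which ranked 26 among all genes by size of fall. The fall was larger between the replicate 1 libraries alone, at -2.47, than within replicates 2 and 3, at -1.86 (limma adjusted p = 2.03e-04). The annotated transcript has 558 bases and held 128 and 161 fragments in normal serum replicates 2 and 3, against 514 and 518 in heat-inactivated serum. The authors' deposited table gives a log2 fold change of -2.11 and a q-value of 2.23e-04. Of the mural and fibroblast markers tested, 8 of 9 fell alongside ADM while CSPG4 rose, as given above. Their part in this result was not tested.

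**Figure D1:**
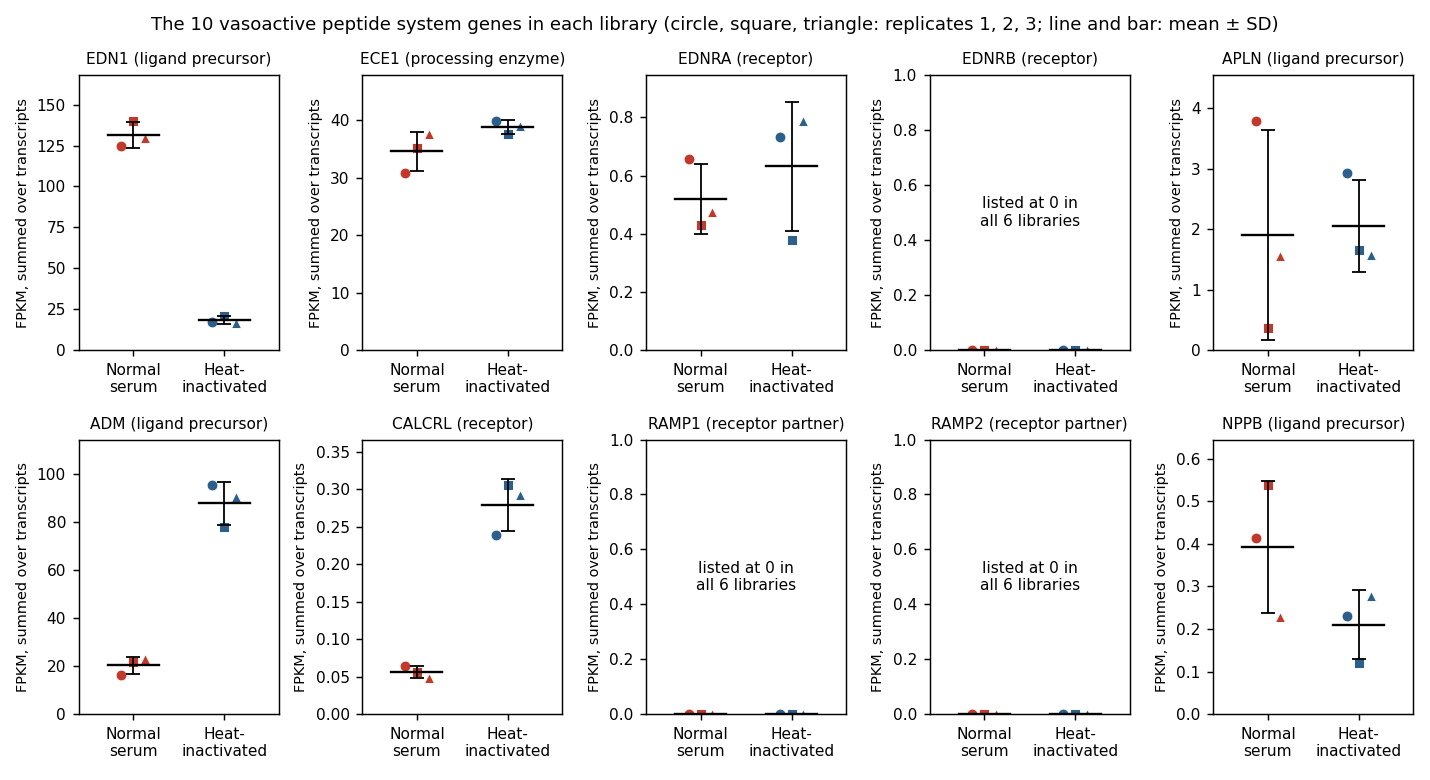
FPKM of each of the 10 genes (vertical axis, from 0, with a scale of its own per panel) in the normal serum libraries (red, left) and the heat-inactivated serum libraries (blue, right); lines and bars are the mean ± SD of 3 libraries. EDN1 and ADM separate the treatments in opposite directions, ECE1 overlaps, CALCRL stays under 0.4 FPKM, and EDNRB, RAMP1 and RAMP2 are listed at 0.

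The order of the EDN1 and ADM levels differed between the sera. FPKM is scaled per annotated length, so levels of different genes can be set side by side as far as those lengths are right. The annotated transcripts have 558 bases for ADM and 1998 bases for EDN1, and whether they are complete was not tested. EDN1 stood at 7.63, 6.47 and 5.61 times the level of ADM in normal serum replicates 1 to 3, against 0.177, 0.271 and 0.184 times in heat-inactivated serum. ADM thus had the higher FPKM of the pair in every heat-inactivated library, and EDN1 in every normal serum library. Such a ratio of FPKM is taken within a library and does not depend on how that library was scaled. The tested ratio used log2(FPKM + 1) of each gene, and the added 1 makes it depend a little on scaling. On that scale the difference of the mean log2 ratio was 4.86 between normal and heat-inactivated serum (exact two-sided permutation test over libraries, p = 0.1, adjusted over 3 ratios p = 0.1). With 3 libraries against 3 this is the smallest p the test can give.

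EDN1 also moved relative to its converting enzyme. EDN1 was 4.04, 3.97 and 3.43 times the level of ECE1 in normal serum, against 0.423, 0.561 and 0.426 times in heat-inactivated serum. With log2(FPKM + 1) of each gene, the difference of the mean log2 ratio was 2.96 (exact two-sided permutation test, p = 0.1, adjusted p = 0.1). The ratio of ADM to its receptor CALCRL, the third one computed, overlapped between treatments when taken on FPKM, at 254 to 481 in normal serum and 255 to 399 in heat-inactivated serum. On the log2(FPKM + 1) scale it differed by -1.79 (exact permutation p = 0.1), or by -0.84 with a pseudocount of 0.1, because CALCRL is so low that the pseudocount sets much of its value.

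**Figure D2:**
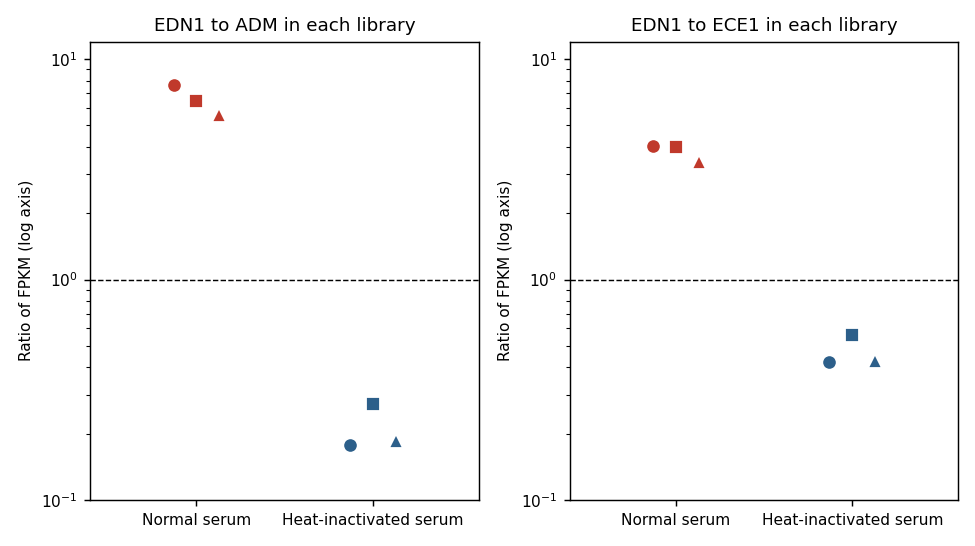
Ratio of EDN1 to ADM (left panel) and of EDN1 to ECE1 (right panel) in FPKM on a log axis, for the normal serum libraries (red) and the heat-inactivated serum libraries (blue); circle, square and triangle are replicates 1, 2 and 3, and the dashed line marks equal levels. Both ratios are above 1 in every normal serum library and below 1 in every heat-inactivated one.

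ECE1, on chromosome 1, encodes the membrane protease that releases endothelin-1 from its intermediate. It had 30.9, 35.2 and 37.7 FPKM in normal serum, against 39.9, 37.6 and 39.1 FPKM in heat-inactivated serum. The treatments overlapped, since normal serum replicate 3 was above heat-inactivated serum replicate 2 by a small margin. The log2 change was -0.17 (SE 0.08, limma adjusted p = 0.12), with a 95% interval from -0.36 to 0.02. The gene has a pair of annotated transcripts. The long one, of 2690 bases, carried most of the level, with 30.4, 33.7 and 33.6 FPKM in normal serum and 38.5, 36.5 and 37.9 FPKM in heat-inactivated serum. These values did not overlap and the transcript was lower by 0.20 on the log2 scale (limma over transcripts, adjusted p = 0.0446, where 39.6% of 15719 transcripts were called). The authors' deposited table gives this transcript a q-value of 0.0524. The short one, of 594 bases, ranged from 0.474 to 4.12 FPKM in normal serum and from 1.09 to 1.43 FPKM in heat-inactivated serum. The gene was also called lower when its highest transcript was used alone (adjusted p = 0.0368), when every library was brought to one total FPKM (adjusted p = 0.0477) and after quantile normalization (adjusted p = 0.0156).

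EDNRA, the receptor of smooth muscle constriction, was low in both sera. Summed over its 3 transcripts it had 0.656, 0.430 and 0.473 FPKM in normal serum, against 0.732, 0.378 and 0.787 FPKM in heat-inactivated serum. The treatments overlapped, and the gene lay below the filter for testing. EDNRB, the receptor known from endothelial cells, was listed at 0 in all 6 libraries. Its transcript of 4258 bases is long, and 3 fragments would have given between 0.0417 and 0.0508 FPKM in replicates 2 and 3. A 0 in this kind of table can also be a failed estimate. FURIN, a protease that most cells make and that cuts the endothelin precursor, and ARHGEF1 were listed at 0 too, so no more is said of these genes than their listing. FURIN and ARHGEF1 were looked at after their values were seen.

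CALCRL, the receptor shared by adrenomedullin and calcitonin gene-related peptide, was near the value of single fragments. It had 0.0644, 0.0567 and 0.0479 FPKM in normal serum, against 0.239, 0.305 and 0.292 FPKM in heat-inactivated serum. The treatments did not overlap, but each of normal serum replicates 2 and 3 held 1 fragment, against 6 and 5 in heat-inactivated serum replicates 2 and 3. The ratio of these fragments, corrected for depth, was 0.174, with an exact 95% counting interval from 0.0187 to 0.797 that covers counting error only. The gene was below the filter. With no filter it was called lower (limma adjusted p = 0.00295), with a log2 change of -0.28, in a setting where 6623 of 17172 genes were called. That test works on FPKM and does not model the counting of so few fragments. RAMP1 and RAMP2, which turn CALCRL into a calcitonin gene-related peptide or an adrenomedullin receptor, were listed at 0 in all libraries. Their annotated transcripts are short, 255 and 432 bases, and RAMP1 lies on an unplaced scaffold of the annotation. The ratio of RAMP1 to RAMP2 could not be formed.

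APLN and NPPB gave no difference beyond the spread. APLN had 3.79, 0.363 and 1.55 FPKM in normal serum, against 2.92, 1.65 and 1.58 FPKM in heat-inactivated serum, on transcripts of 369 and 234 bases. Its normal serum values spread over a wider range than the gap between the means, and the log2 change was -0.23 with a 95% interval from -1.22 to 0.76 (limma adjusted p = 0.67). NPPB had 0.413, 0.537 and 0.228 FPKM in normal serum, against 0.232, 0.120 and 0.277 FPKM in heat-inactivated serum, below the filter. These are 4 and 2 fragments in normal serum replicates 2 and 3, and 1 and 2 in heat-inactivated serum replicates 2 and 3. Their ratio was 1.91 with an exact 95% counting interval from 0.409 to 11.8.

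By level, the order over both treatments was led by EDN1 and ADM. In normal serum EDN1 came first, then ECE1, then ADM, and these neighbours did not overlap between their libraries. In heat-inactivated serum ADM came first, then ECE1, then EDN1, again without overlap. Next in normal serum were APLN, EDNRA, NPPB and CALCRL, where APLN overlapped EDNRA and EDNRA overlapped NPPB. In heat-inactivated serum they were APLN, EDNRA, CALCRL and NPPB, where CALCRL overlapped NPPB. Over all genes tested, the mean level of EDN1 was at percentile 87.9, ADM at 83.0, ECE1 at 75.6 and APLN at 8.12.

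**Figure D3:**
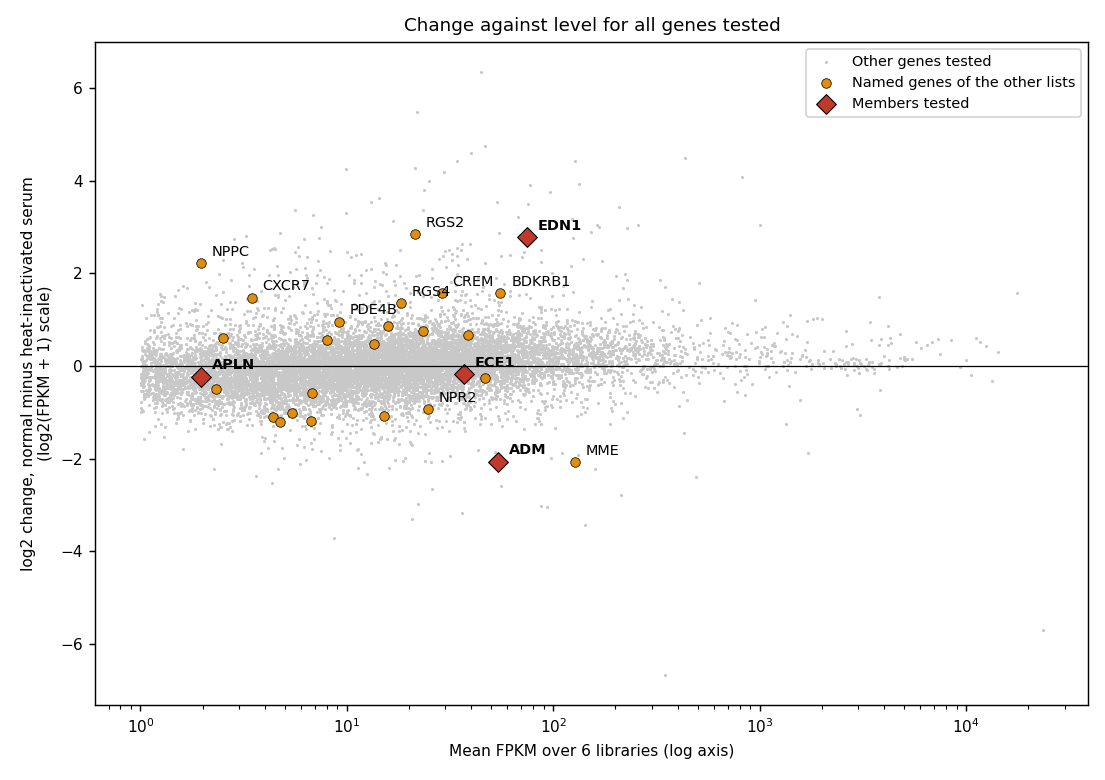
Log2 change, normal minus heat-inactivated serum, on the log2(FPKM + 1) scale (vertical axis) against mean FPKM over 6 libraries (log axis) for the 11818 genes tested. The members tested are red diamonds and the named genes of the other lists orange circles: EDN1 lies at 2.79 and ADM at -2.07, while ECE1 and APLN lie near 0.

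Beyond the members, 6 lists of 137 genes of vasoactive peptide signalling were read from the same fit. Of these 129 were found in the table, 77 were tested, and 20 were higher and 26 lower, or 59.7% called beside 54.0% of all genes. The lists were also chosen with earlier results of these data known, so these shares are no independent comparison. Their median log2 change was -0.10, beside 0.01 over all genes tested. With every library brought to one total FPKM, the median of all genes moved to -0.12, and the calls split into 1952 higher and 3672 lower instead of 3291 and 3090. The list counts were then 17 higher and 33 lower of 78 tested. The called genes of these lists named below, and the nearest-profile genes named after them, kept their direction under that scaling, under quantile normalization and within replicates 2 and 3. They were chosen by their values in the same 6 libraries, so this was likely beforehand and is no independent check.

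Among the other peptides, 2 of 12 found were tested, 1 higher and 1 lower, and 8 were listed at 0. ADM2, which encodes intermedin, a relative of adrenomedullin that uses the same receptors, went the way of ADM. It had 2.67, 1.73 and 2.93 FPKM in normal serum, against 7.89, 5.48 and 5.75 FPKM in heat-inactivated serum (log2 change -1.10, SE 0.18, limma adjusted p = 0.00164). NPPC, the precursor of C-type natriuretic peptide, had 2.64, 2.73 and 6.39 FPKM in normal serum and was listed at 0 in all heat-inactivated libraries (limma adjusted p = 4.63e-04). Its transcript is short and no fold is given against 0. EDN2, another endothelin gene and named after its values were seen, had 0.219, 0.262 and 0.499 FPKM in normal serum and was listed at 0 in heat-inactivated serum, below the filter.

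Of the other receptors and receptor partners, 6 of 16 found were tested, 3 higher and 3 lower. CXCR7, the older symbol of ACKR3, a scavenger receptor that also binds adrenomedullin, had 5.42, 6.47 and 4.82 FPKM in normal serum, against 1.42, 1.42 and 1.21 FPKM in heat-inactivated serum. It rose by a log2 change of 1.48 (SE 0.12, limma adjusted p = 7.12e-05). NPR2, the receptor of C-type natriuretic peptide, averaged 16.8 ± 0.638 FPKM in normal serum and 32.8 ± 1.18 FPKM in heat-inactivated serum (SD, n = 3 each; limma adjusted p = 3.48e-05). NPR3, the receptor that clears natriuretic peptides, averaged 3.26 ± 0.172 and 7.62 ± 1.11 FPKM in normal and heat-inactivated serum (limma adjusted p = 2.63e-04). By the listed values, the ligand NPPC and its receptors NPR2 and NPR3 thus changed in opposite directions. For NPPC this rests on a 0 in every heat-inactivated library, which can also be a failed estimate, and its fragments were not read.

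Kinin receptors also parted. BDKRB1, the bradykinin receptor that is induced on injury, had 90.1, 81.6 and 77.7 FPKM in normal serum, against 33.5, 28.5 and 21.1 FPKM in heat-inactivated serum (log2 change 1.57, SE 0.15, limma adjusted p = 1.83e-04). BDKRB2, the constitutive bradykinin receptor and named after its values were seen, had 2.84, 3.24 and 4.36 FPKM in normal serum, against 8.35, 7.58 and 6.55 FPKM in heat-inactivated serum (limma adjusted p = 0.00133). Neither gene overlapped between treatments. The receptor gene APLNR, named after its values were seen, stayed at or under 0.268 FPKM in every library.

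Of the processing and breakdown enzymes, 8 of 21 found were tested, 2 higher and 3 lower. MME encodes neprilysin, a membrane protease that breaks down natriuretic peptides, bradykinin, adrenomedullin and endothelin-1. It had 41.5, 50.7 and 53.6 FPKM in normal serum, against 200.2, 204 and 213 FPKM in heat-inactivated serum. Every normal serum library was thus far below every heat-inactivated one (log2 change -2.07, SE 0.10, limma adjusted p = 7.10e-06). ECE2, a relative of ECE1, averaged 15.9 ± 1.57 FPKM in normal serum and 11.1 ± 0.496 FPKM in heat-inactivated serum (SD, n = 3 each; limma adjusted p = 0.00272). PCSK7, a furin-like convertase, rose 1.71-fold (limma adjusted p = 0.0214), and XPNPEP1, an aminopeptidase that cuts bradykinin, stood at 0.827 of its level in heat-inactivated serum (limma adjusted p = 0.014). The PCSK7 call ended without normal serum replicate 1 (adjusted p = 0.0579) or heat-inactivated serum replicate 2 (0.0694) or 3 (0.0685). That of XPNPEP1 ended within replicates 2 and 3 (adjusted p = 0.0614) and without heat-inactivated serum replicate 3 (0.0526).

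Of the genes of Gq, G11, G12 and G13 signalling and receptor desensitization, 27 of 30 found were tested, 6 higher and 10 lower. RGS2, a GTPase-activating protein that shortens Gq signals, had 32.9, 43.3 and 38.5 FPKM in normal serum, against 5.07, 4.11 and 4.13 FPKM in heat-inactivated serum. It was 8.61-fold higher (log2 change 2.85, SE 0.12, limma adjusted p = 4.07e-06). RGS4, of the same family, rose 2.71-fold to 26.6 ± 2.31 FPKM, while RGS5, also a pericyte marker, fell to 9.26 ± 0.458 FPKM in normal serum, against 21.0 ± 3.58 FPKM in heat-inactivated serum. PLCB1, a phospholipase C that Gq activates, averaged 3.71 ± 0.197 FPKM in normal serum and 9.67 ± 1.09 FPKM in heat-inactivated serum (limma adjusted p = 7.90e-05). PRKCD, a protein kinase C, rose 1.89-fold (limma adjusted p = 4.81e-05).

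Of the genes of Gs and cyclic AMP signalling, 27 of 33 found were tested, 6 higher and 6 lower, or 44.4% called. CREM, a transcription factor gene that cyclic AMP induces, had 40.8, 46.1 and 44.0 FPKM in normal serum, against 12.8, 13.7 and 15.3 FPKM in heat-inactivated serum (log2 change 1.58, SE 0.08, limma adjusted p = 1.24e-05). Its log2 change was 0.80 when its highest transcript was used alone. PDE4B, a phosphodiesterase that breaks down cyclic AMP, averaged 12.4 ± 0.616 FPKM in normal serum and 5.90 ± 0.0633 FPKM in heat-inactivated serum (limma adjusted p = 4.61e-05). CRTC2, a coactivator of CREB, rose 1.62-fold, and ADCY9, an adenylyl cyclase, stood at 0.627 of its level in heat-inactivated serum (limma adjusted p = 3.20e-04 and 0.0018).

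Of the genes of nitric oxide and cyclic GMP signalling, 7 of 17 found were tested, 2 higher and 3 lower. PDE5A, which breaks down cyclic GMP, had 1.95, 2.37 and 3.20 FPKM in normal serum, against 7.44, 6.84 and 6.75 FPKM in heat-inactivated serum (log2 change -1.21, SE 0.14, limma adjusted p = 3.33e-04). DDAH1, which clears an inhibitor of nitric oxide synthase, and GCH1, which makes a cofactor of that synthase, rose 1.54-fold and 1.83-fold. PRKG1, the cyclic GMP-dependent kinase, averaged 1.75 ± 0.268 FPKM in normal serum and 2.92 ± 0.551 FPKM in heat-inactivated serum (limma adjusted p = 0.0187). The PRKG1 call ended after quantile normalization (adjusted p = 0.054), with the highest transcript (0.0891), and without normal serum replicate 1 (0.0544), heat-inactivated serum replicate 2 (0.0644) or heat-inactivated serum replicate 3 (0.0579). That of GCH1 ended with the highest transcript (0.236). NOS3, the endothelial nitric oxide synthase and named after its values were seen, was at 0.0148 FPKM in normal serum replicate 3 and listed at 0 in the other 5 libraries.

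**Figure D4:**
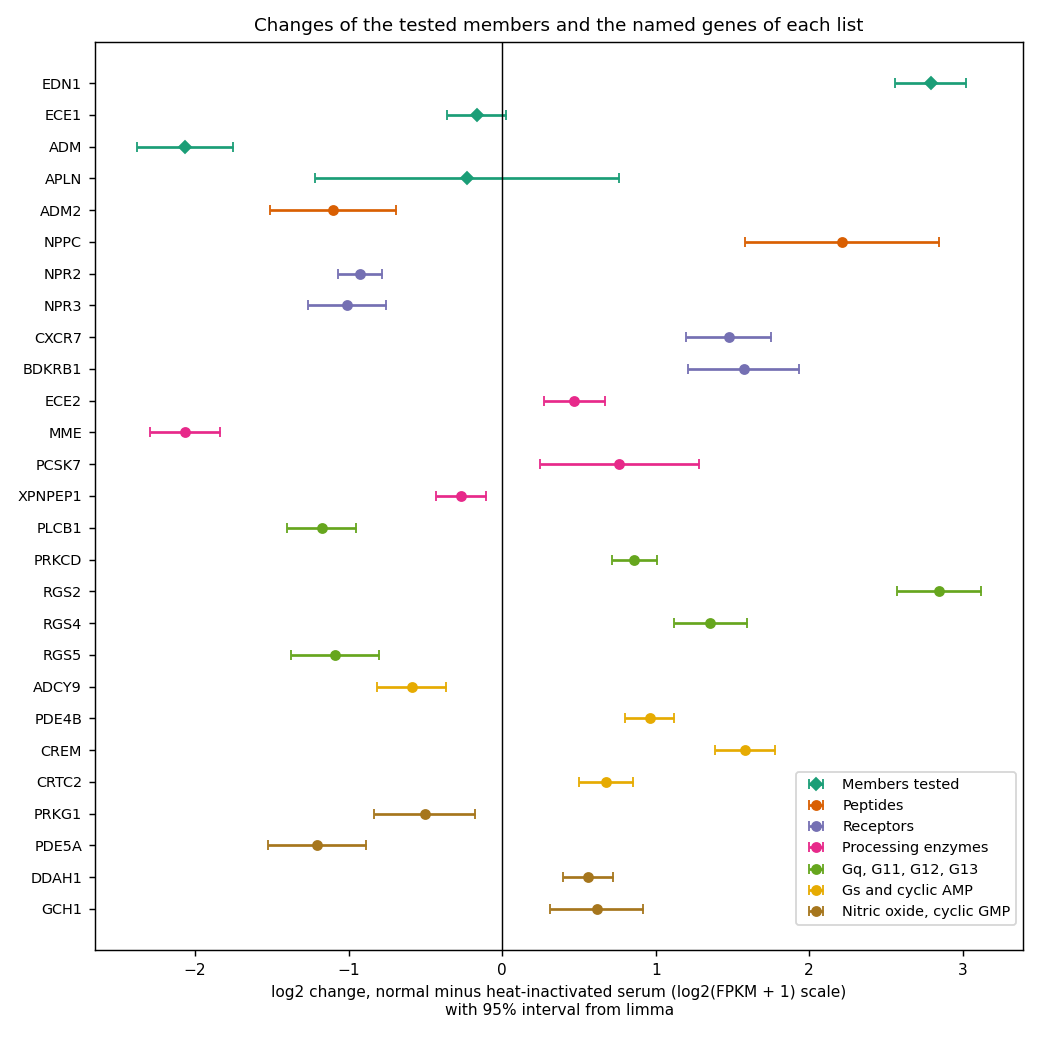
Log2 change, normal minus heat-inactivated serum (horizontal axis, log2(FPKM + 1) scale), with the 95% interval from limma, for the 4 members tested (diamonds) and the named genes of the 6 lists (circles, coloured by list). RGS2 at 2.85 and EDN1 at 2.79 lie farthest to the right, and ADM and MME, both at -2.07, farthest to the left. The added 1 sets part of this order: with a pseudocount of 0.1, NPPC was at 5.21, RGS2 at 3.08 and EDN1 at 2.85.

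Genes whose profile over the 6 libraries lay nearest to a called member were found by the Euclidean distance of log2(FPKM + 1) centred on the gene's mean, among 10765 genes with a symbol. With 6 libraries in 2 treatments, such nearness mainly reflects a change of like size on that scale, where the added 1 shrinks the changes of low genes. Nearest to EDN1 was HBEGF, a ligand of the EGF receptor, at a distance of 0.26, with 219 ± 6.80 FPKM in normal serum and 31.5 ± 2.64 FPKM in heat-inactivated serum. GREM1, an inhibitor of bone morphogenetic proteins, followed at 0.36, and IL1RN, the interleukin-1 receptor antagonist, at 0.36. IL1RN averaged 6.46 FPKM in normal serum and 0.0563 FPKM in heat-inactivated serum, so the pseudocount sets much of its change. With a pseudocount of 0.1 its log2 change was 5.55, against 2.85 for EDN1. Nearest to ADM was RARB, a retinoic acid receptor, at 0.16, with 2.76 ± 0.676 FPKM in normal serum and 13.7 ± 0.969 FPKM in heat-inactivated serum. MME followed at 0.24, and PDGFRB, a receptor gene listed above among the mural and fibroblast markers, at 0.28, with 12.6 ± 1.47 FPKM in normal serum and 50.8 ± 3.65 FPKM in heat-inactivated serum.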

How the data were processed

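The submitters' processing notes name TopHat2 2.0.7, Cufflinks 2.1.1, and Cuffdiff in version 2.1.1. The sources used here give no genome build. The deposited table gives, per the file headers, FPKM per transcript and library, computed by the authors, with the authors' FPKM per treatment, q-value, p-value and log2 fold change of each transcript. From it, transcripts with the same symbol were summed, and a gene name table supplied symbols for 256 of 7008 identifiers that had none. Isoforms and overlapping genes are therefore merged, and strand is not established.

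Genes were tested with limma 3.58.1 (R 4.3.3), with an empirical Bayes variance that follows a trend and no batch term; the fit was tested on simulated data first. Fold changes on the log2(FPKM + 1) scale understate those of low genes. Folds are ratios of mean FPKM. Depth was read from single-transcript genes at their lowest values, where 1 fragment sets the step. For replicates 2 and 3, 100% of low values came out whole, within 0.1 fragments. In the replicate 1 libraries of normal and heat-inactivated serum 45.9% and 49.9% did. A step that is not fitted gives 20% by chance. The step was fitted per library to make the share largest, so chance can give more than that here.

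Named genes were all members, per list up to 4 called genes of smallest adjusted p, other list genes called with a log2 change of at least 1, and the 3 nearest profiles of each member called with such a change. The members and lists were chosen with earlier results of these data known. Alternatives varied pseudocount, filter, scaling, variance model, summing and libraries. No sequences of the members were used here.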

Additional observations from a re-analysis of the deposited data

How the results depend on the processing

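EDN1 kept its direction and its call in each of 17 alternatives, with log2 changes from 2.65 to 2.89 and limma adjusted p from 3.73e-08 to 1.38e-04, and so did ADM, from -2.21 to -1.86 (1.42e-06 to 3.13e-04). Leaving out 1 library at a time, EDN1 ranged from 2.73 to 2.89 and ADM from -2.16 to -1.92. The count of members called lower became 2 with no filter (through CALCRL), and 2 with the same total FPKM, with quantile normalization and with the highest transcript (through ECE1); it was 1 otherwise. Of all genes, 5166 to 7063 were called, 5455 to 5872 with 1 library left out. The EDN1 to ADM ratio differed by 4.75 to 5.04 on the log2 scale, with a pseudocount added to each gene. The EDN1 to ECE1 ratio differed by 2.89 to 3.08 on that scale, over 9 alternatives each. A replicate block called 6775 genes, against 6381 without it, and changed no call of a tested member or of the 29 called list and nearest-profile genes named. Those 29 were chosen by their values in the same libraries. The replicate numbers were not taken as pairs, since same-numbered libraries of replicates 2 and 3 correlated at only 0.0333 and 0.00593. Normal serum replicate 2 correlated best with heat-inactivated serum replicate 3. The replicate 1 libraries did go together, at 0.193, and their correlations with replicates 2 and 3 of the other treatment were from -0.134 to -0.0889. With a term for the replicate 1 libraries 7063 genes were called. Depth limits CALCRL and NPPB, which rest on few fragments.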
